A study of Mus musculus with 10 samples.

Results

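Guanylate-binding proteins (GBPs) are large GTPases of the dynamin superfamily that cells make in quantity when exposed to interferon gamma, which acts through its receptor, the kinases JAK1 and JAK2 and transcription factors that include IRF1. They assemble as coats on vacuoles and bacteria in the cytosol, help to break pathogen compartments and pass bacterial lipopolysaccharide to inflammatory caspases. In liver, hepatocytes as well as immune and endothelial cells can make them after exposure to interferon. The 10 genes described here are Gbp2 to Gbp11, taken by symbol from a table of 53392 genes, and all 10 had reads and passed the filter on low counts.

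The data are RNA sequencing counts of 10 snap-frozen livers, each from a C57BL/6 mouse aged 24 weeks. One group was wild type (WT, n = 5, replicates 1 to 5) and the other lacked hepatic Fbp1, the gene of the gluconeogenic enzyme fructose bisphosphatase (Fbp1-deleted, n = 5, replicates 6 to 10). Which promoter or cross removed the gene, and the sex of the mice, were not in the sources read for this work. The labels name no treatment. Whole tissue was extracted, so fewer cells of a type and less RNA per cell cannot be told apart in any result below.

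Libraries held between 17778395 and 23894812 counts. Fbp1 itself was between 778 and 1050 counts per 1000000 counts of the library (CPM) in the WT livers and between 7.38 and 13.4 CPM in those labelled Fbp1-deleted, so the groups matched their labels. Levels are in CPM on library sizes scaled by TMM (trimmed mean of M values), as mean ± SD, and changes are log2 differences, Fbp1-deleted minus WT, with the standard error (SE) of edgeR's quasi-likelihood fit. A gene is said to have risen or fallen where the Benjamini-Hochberg adjusted p over all 15392 genes tested was under 0.05. The hepatocyte markers were abundant in every library, with summed levels of 54774 to 96040 CPM in WT and 82355 to 94746 CPM in Fbp1-deleted liver. Of these 7 markers 1 rose and 1 fell, which the sum does not show.

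The family lies in 2 gene clusters of the mouse genome (GRCm38, GENCODE M21). On the plus strand of chromosome 3 the order is Gbp5 (142493978 to 142522344), Gbp7 (142530342 to 142550149), Gbp3 (142560026 to 142573209), Gbp2b, which is not one of the 10, and Gbp2 (142620602 to 142638008). On the minus strand of chromosome 5 the order by coordinate is Gbp8 (105014150 to 105139540), Gbp9 (105077630 to 105139539), Gbp4 (105115767 to 105139586), Gbp10 (105215699 to 105239533), Gbp6 (105270702 to 105293698) and Gbp11 (105323042 to 105346472). The annotation calls 9 of the genes protein-coding and Gbp11 a polymorphic pseudogene, meaning that its reading frame is intact in some strains. The annotated spans of Gbp8, Gbp9 and Gbp4 overlap one another, and Gm43302, a separate annotated coding gene, overlaps both Gbp6 and Gbp10.

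The start of the coding sequence shows how alike the chromosome 5 genes are at that end. How hard short reads are to assign depends on the whole transcripts, for which shared words are given below. The first 60 coding bases of the longest annotated coding transcript are shown 5′ to 3′ from the start codon on chromosome 5 (GRCm38, minus strand), with capitals at bases that differ from Gbp6. The start codons begin at 105291020 (Gbp6), 105236134 (Gbp10), 105137021 (Gbp4), 105051047 (Gbp8), 105105847 (Gbp9) and 105343929 (Gbp11).
Gbp6: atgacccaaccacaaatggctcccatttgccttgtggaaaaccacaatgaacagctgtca
Gbp10: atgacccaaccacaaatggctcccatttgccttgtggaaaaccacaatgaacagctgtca
Gbp4: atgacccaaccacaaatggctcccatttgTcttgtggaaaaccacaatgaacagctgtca
Gbp8: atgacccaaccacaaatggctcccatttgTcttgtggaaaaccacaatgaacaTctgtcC
Gbp9: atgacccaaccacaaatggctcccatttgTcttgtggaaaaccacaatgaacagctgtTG
Gbp11: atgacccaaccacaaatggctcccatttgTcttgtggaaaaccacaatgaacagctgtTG
Gbp10 had 0 differences from Gbp6 in this window, Gbp4 had 1 and each of Gbp8, Gbp9 and Gbp11 had 3. Gbp9 and Gbp11 carry the same letters here. Over whole aligned coding sequences Gbp6 and Gbp10 were 98.4% identical, and the other pairs within chromosome 5 were between 90.0% and 93.8% identical. The closest members on chromosome 3, Gbp3 and Gbp7, were 79.5% identical, and Gbp2 was 73.4% identical to Gbp5. The shared letters bear on the counts. Of all words of 31 bases in the annotated transcripts of Gbp10, 89.8% also occur in another gene, and for Gbp6 the share is 74.3%. The share was 34.3% for Gbp11, 31.1% for Gbp8, 18.3% for Gbp9 and 14.9% for Gbp4, against 14.7% for Gbp7, 5.64% for Gbp3, 4.85% for Gbp2 and 3.10% for Gbp5. How counts were divided between Gbp6, Gbp10 and Gm43302 therefore rests on the quantifier's model, and the levels of these genes one by one are uncertain.

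The promoters of the chromosome 3 members are shown because these genes lie side by side and some passed the test below while Gbp5 did not. The RefSeq promoter table of GRCm38.p6 held Gbp2, Gbp3, Gbp5 and Gbp7, so 4 of the 10 members matched. Each window was searched on both strands for the core letters of the interferon-stimulated response element (ISRE, TTTCNNTTTC) and of the gamma-activated site (GAS, TTCNNNGAA). The stretch before the RefSeq start is printed 5′ to 3′ on the plus strand, up to the first base that GENCODE annotates as an exon of the gene, with matches in capitals.
Gbp5, chr3:142496684-142496899: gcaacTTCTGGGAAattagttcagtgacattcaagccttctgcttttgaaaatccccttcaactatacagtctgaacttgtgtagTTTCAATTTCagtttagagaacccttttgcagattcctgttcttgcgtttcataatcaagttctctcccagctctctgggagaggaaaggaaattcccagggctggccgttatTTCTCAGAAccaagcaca
Gbp7, chr3:142530086-142530335: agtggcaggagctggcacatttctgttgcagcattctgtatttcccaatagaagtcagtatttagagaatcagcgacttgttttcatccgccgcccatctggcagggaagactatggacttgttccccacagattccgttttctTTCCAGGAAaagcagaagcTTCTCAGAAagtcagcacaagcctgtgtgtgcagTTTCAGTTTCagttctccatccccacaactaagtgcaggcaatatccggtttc
Gbp3, chr3:142559794-142560025: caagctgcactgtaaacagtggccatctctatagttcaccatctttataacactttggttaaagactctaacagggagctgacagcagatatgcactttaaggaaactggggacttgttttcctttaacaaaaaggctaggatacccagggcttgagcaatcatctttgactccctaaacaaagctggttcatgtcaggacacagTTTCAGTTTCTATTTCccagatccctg
Gbp5, Gbp7 and Gbp2 each held 1 ISRE match and Gbp3 held 2 that overlap each other. The match of Gbp2 lies in an annotated exon and is not printed. A second RefSeq start of Gbp3 had 0 matches of either kind. The Gbp5 window lies inside the GENCODE span of Gbp5, which begins upstream at 142493978. The stretch before that upstream start was not searched. GAS matches were found in Gbp7 and Gbp5, with 2 each, and none of them overlaps an ISRE match. Among the 32851 promoter windows of 300 bases in the table, 3.44% held the ISRE letters and 8.3% the GAS letters. Gbp2b, the chromosome 3 neighbour that is no member, held 1 ISRE match. A match describes letters only. Genes that fell (Gbp2, Gbp3, Gbp7) and genes that did not pass the test (Gbp5, Gbp2b) both held it.

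Of the 10 Gbp genes, 6 fell in Fbp1-deleted liver, 0 rose and 4 did not pass the test. The 6 were Gbp2, Gbp3 and Gbp7 of chromosome 3 and Gbp6, Gbp10 and Gbp11 of chromosome 5. In the same fit 10% of all genes tested fell and 10.6% rose (12.8% and 7.73% with library totals alone, 12.2% and 8.23% with upper quartile factors). The median change of the 10 members was -1.22, beside 0.01 over all genes tested. Each of the 6 was at least 2-fold lower, and 3.16% of all genes tested both fell and were at least 2-fold lower. With 7 members, the 6 and Gbp4, each Fbp1-deleted library lay below each WT library, which was so for 6.89% of all genes tested.

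**Figure D1:**
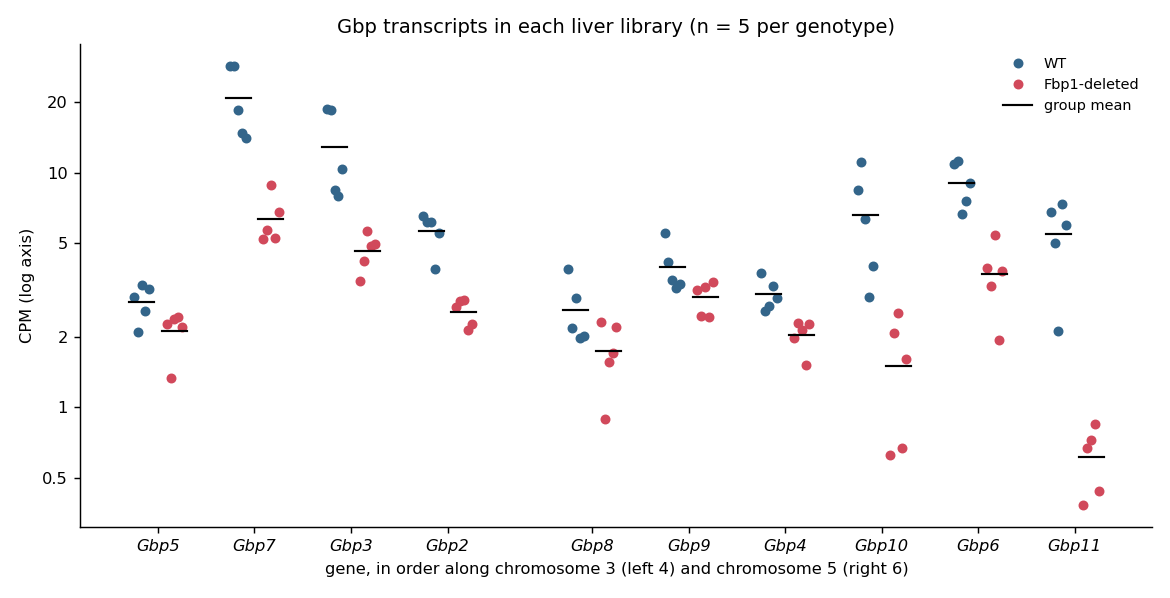
CPM on a log axis of each of the 10 Gbp genes in the 5 WT and 5 Fbp1-deleted libraries, with a black line at the group mean, in chromosome order. The groups are fully apart for Gbp7, Gbp3, Gbp2, Gbp4, Gbp10, Gbp6 and Gbp11, and overlap for Gbp5, Gbp8 and Gbp9.

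Gbp7, known for a part in vacuole rupture and in assembly of the phagocyte oxidase, took the largest share of the family's counts. Its level in WT replicates 1 to 5 was 28.3, 28.5, 18.5, 14.8 and 14.0 CPM. In Fbp1-deleted replicates 6 to 10 it was 5.22, 5.68, 8.82, 5.28 and 6.78 CPM. The lowest WT library stood above the highest Fbp1-deleted library, replicate 8. The mean fell from 20.8 ± 7.13 to 6.36 ± 1.51 CPM (SD, n = 5 each). That was a log2 change of -1.71 with an SE of 0.23 (edgeR, adjusted p = 0.000508), or 3.27-fold lower.

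Gbp3, the neighbour of Gbp7, had the highest WT level per length. Its WT levels were 18.7, 18.6, 8.45, 7.92 and 10.3 CPM, with replicates 1 and 2 well above the other 3. Its Fbp1-deleted levels were 3.45, 4.18, 5.62, 4.85 and 4.96 CPM, all below the lowest WT library. The mean fell from 12.8 ± 5.40 to 4.61 ± 0.828 CPM (SD, n = 5 each). That was a log2 change of -1.47 with an SE of 0.26 (edgeR, adjusted p = 0.00237), or 2.78-fold lower.

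Gbp2 is much studied for resistance to vacuolar pathogens, and its protein is prenylated at the end of the chain. Its WT levels were 6.54, 6.17, 6.17, 3.88 and 5.50 CPM, of which replicate 4 was the lowest. In Fbp1-deleted liver the levels were 2.68, 2.84, 2.86, 2.12 and 2.26 CPM, a narrow range below all WT values. The mean fell from 5.65 ± 1.06 to 2.55 ± 0.341 CPM (SD, n = 5 each). That was a log2 change of -1.14 with an SE of 0.19 (edgeR, adjusted p = 0.00108), or 2.21-fold lower.

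Gbp5, which is also prenylated and acts in inflammasome responses, is the first gene of the chromosome 3 cluster. Its WT levels were 2.95, 2.08, 3.30, 2.57 and 3.19 CPM and its Fbp1-deleted levels 2.25, 1.34, 2.38, 2.43 and 2.20 CPM. The groups overlapped, since 4 of the 5 Fbp1-deleted libraries lay above the lowest WT library. The change was -0.41 (SE 0.23, adjusted p = 0.221, edgeR), which did not pass. Its 3 cluster mates changed by -1.14 to -1.71.

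On chromosome 5, Gbp11 had the largest change of the family and ranked 16th of 15392 genes by size of fall. Its WT levels were 6.79, 4.99, 2.11, 7.38 and 5.97 CPM, of which replicate 3 was the lowest. Its Fbp1-deleted levels were 0.383, 0.669, 0.727, 0.850 and 0.441 CPM, from as few as 8 reads in a library. Every Fbp1-deleted library was below 1 CPM and every WT library above 2 CPM. The mean fell from 5.45 ± 2.07 to 0.614 ± 0.197 CPM (SD, n = 5 each). That was a log2 change of -3.14 with an SE of 0.35 (edgeR, adjusted p = 6.63e-05), or 8.84-fold lower.

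Gbp10 and Gbp6 are the near-identical pair. Gbp10 stood at 8.46, 11.1, 6.34, 2.95 and 4.01 CPM in WT, a wide spread with replicates 1 and 2 highest. In Fbp1-deleted liver it stood at 0.623, 2.06, 2.52, 0.668 and 1.60 CPM, all below the lowest WT library. Replicates 6 and 9 held only 13 and 11 of its reads. The mean fell from 6.58 ± 3.31 to 1.49 ± 0.841 CPM (SD, n = 5 each). That was a log2 change of -2.13 with an SE of 0.45 (edgeR, adjusted p = 0.00756), or 4.39-fold lower. Without WT replicates 1 and 2, the change of Gbp10 was -1.56 and did not pass (adjusted p = 0.0537, edgeR).

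Gbp6 stood at 10.9, 11.2, 6.66, 7.54 and 9.05 CPM in WT. It stood at 3.93, 3.29, 5.43, 1.94 and 3.80 CPM in Fbp1-deleted liver, with replicate 8 highest and replicate 9 lowest, and the groups did not overlap. The mean fell from 9.07 ± 1.99 to 3.68 ± 1.26 CPM (SD, n = 5 each). That was a log2 change of -1.30 with an SE of 0.24 (edgeR, adjusted p = 0.00229), or 2.45-fold lower. A sum over Gbp6, Gbp10 and Gm43302 does not depend on how reads were split among them. It was 17.2 ± 5.46 CPM (SD, n = 5) in WT, with libraries from 10.5 to 24.4, and 5.78 ± 1.65 CPM (SD, n = 5) in Fbp1-deleted liver, with libraries from 3.40 to 7.95.

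The remaining chromosome 5 members, Gbp4, Gbp8 and Gbp9, whose annotated spans overlap, did not pass the test. Gbp4 stood at 3.74, 2.57, 2.71, 3.28 and 2.93 CPM in WT and at 1.96, 2.28, 2.13, 1.52 and 2.26 CPM in Fbp1-deleted liver, and the groups did not overlap. Its change of -0.58 (SE 0.20) had an adjusted p of 0.057 in edgeR, and it passed under 4 of 19 alternatives, with adjusted p between 0.0407 and 0.0483 there. Gbp8 stood at 1.97 to 3.89 CPM in WT and 0.892 to 2.30 CPM in Fbp1-deleted liver, which gave -0.58 (SE 0.29, edgeR, adjusted p = 0.178). Gbp9 stood at 3.22 to 5.51 CPM and 2.43 to 3.42 CPM, which gave -0.42 (SE 0.20, edgeR, adjusted p = 0.158). For both, the Fbp1-deleted libraries overlapped the WT range, and all 5 lay below the WT mean.

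That some members passed and others did not does not by itself show that they moved by different amounts, so the difference was tested. For each of 45 pairs of members, the log2 ratio of the pair was compared between genotypes with an exact permutation test over the 5 and 5 libraries (two-sided, smallest possible p 0.00794). After Benjamini-Hochberg adjustment over the 45 pairs, 15 passed at 0.05, of which 12 had the smallest possible p (adjusted p = 0.0298). Gbp11 fell further than Gbp2 and Gbp3, and its change was also larger than those of Gbp4, Gbp5, Gbp8 and Gbp9. The change of Gbp9 was smaller than those of Gbp2, Gbp3, Gbp6, Gbp7, Gbp10 and Gbp11. Gbp7 moved further than Gbp4, Gbp5 and Gbp8 as well, and Gbp3 further than Gbp5. On the log2 scale (prior count of 2), the change of Gbp7 minus that of Gbp8 was -1.085, and the change of Gbp3 minus that of Gbp5 was -0.96. Gbp6 against Gbp10 differed by 0.78 without passing (exact permutation p = 0.0794, adjusted p = 0.119).

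**Figure D2:**
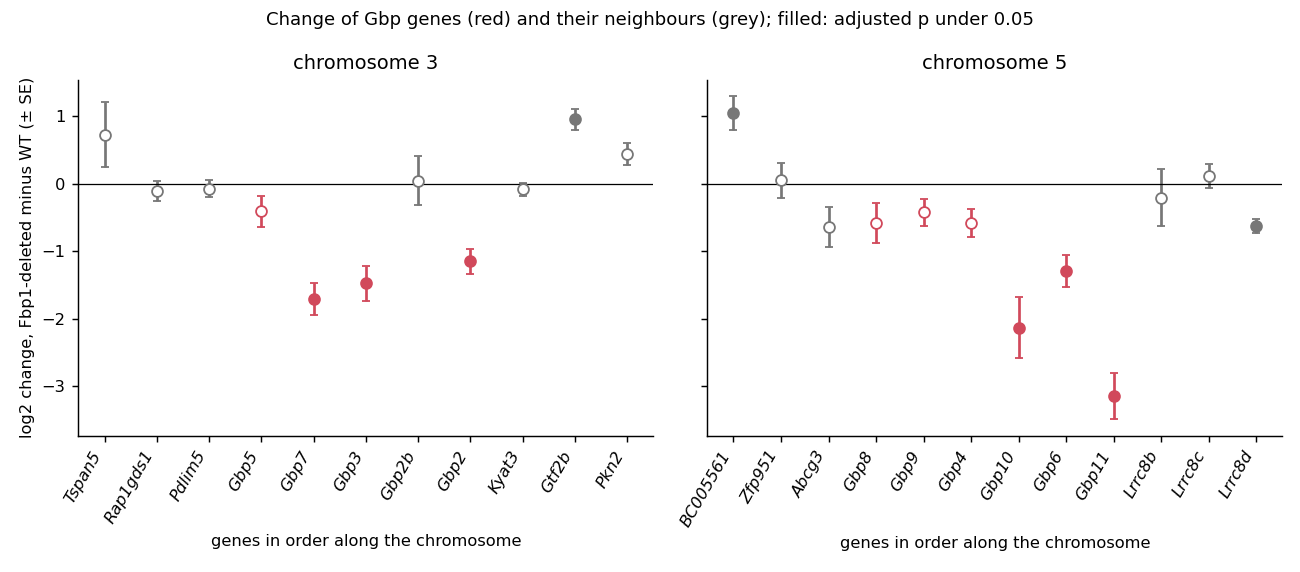
Fitted log2 change (Fbp1-deleted minus WT) with its SE for the Gbp genes (red) and neighbouring genes (grey) in chromosome order, filled where the adjusted p was under 0.05. The filled red points lie between -1.14 and -3.14, and the nearest genes outside the clusters lie between -0.64 and 1.05.

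Of the 12 nearest tested coding genes, 3 to each side of each cluster, 2 rose and 1 fell, which is near the share over all genes tested (10.6% rose and 10% fell). Gtf2b, a general transcription factor next to the chromosome 3 cluster, rose from 14.8 ± 3.73 to 28.7 ± 2.88 CPM (SD, n = 5 each). Its change was 0.96 (SE 0.16, adjusted p = 0.00119, edgeR). BC005561 rose by 1.05 (SE 0.25, adjusted p = 0.0131, edgeR), and Lrrc8d, a subunit of volume-regulated anion channels, fell from 30.9 ± 3.19 to 20.02 ± 1.56 CPM (edgeR, adjusted p = 0.00103). Kyat3, the kynurenine aminotransferase gene that follows Gbp2, had a change of -0.08 (SE 0.10, adjusted p = 0.583). Gbp2b, placed between Gbp3 and Gbp2, stood at 1.28 ± 0.434 CPM in WT and 1.32 ± 0.656 CPM in Fbp1-deleted liver (SD, n = 5 each). Its change of 0.05 (SE 0.36, adjusted p = 0.941, edgeR) turned sign under 6 of 19 alternatives, library totals alone and upper quartile factors among them.

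Summed over the 10 genes, the family took 72.8 ± 19.2 CPM in WT and 28.1 ± 4.58 CPM in Fbp1-deleted liver (SD, n = 5 each), 2.59-fold lower. WT libraries lay between 55.5 and 95.8 CPM and Fbp1-deleted libraries between 23.8 and 35.3 CPM. The chromosome 3 sum was 2.69-fold lower (42.1 ± 12.9 against 15.6 ± 2.46 CPM) and the chromosome 5 sum 2.46-fold lower (30.7 ± 6.64 against 12.5 ± 2.42 CPM). Within the sum the shares shifted. Gbp11 made up 3.48% to 13.3% of the family's CPM in the WT libraries and 1.47% to 3.57% in the Fbp1-deleted ones. The share of Gbp9 went the other way, from 4.56% to 5.81% in WT to 9.20% to 12.2% in Fbp1-deleted liver, without overlap. Gbp4 did so too, with 2.82% to 5.91% in WT and 6.04% to 8.89% in Fbp1-deleted liver. The mean shares of Gbp2, Gbp5, Gbp6 and Gbp8 were also higher, with overlap. A share rises for any member that falls less than the sum, and the mean CPM of Gbp9 and Gbp4 was lower in Fbp1-deleted liver. The share of Gbp7 was 28.2% ± 3.28 in WT and 22.4% ± 1.75 in Fbp1-deleted liver (SD, n = 5 each).

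**Figure D3:**
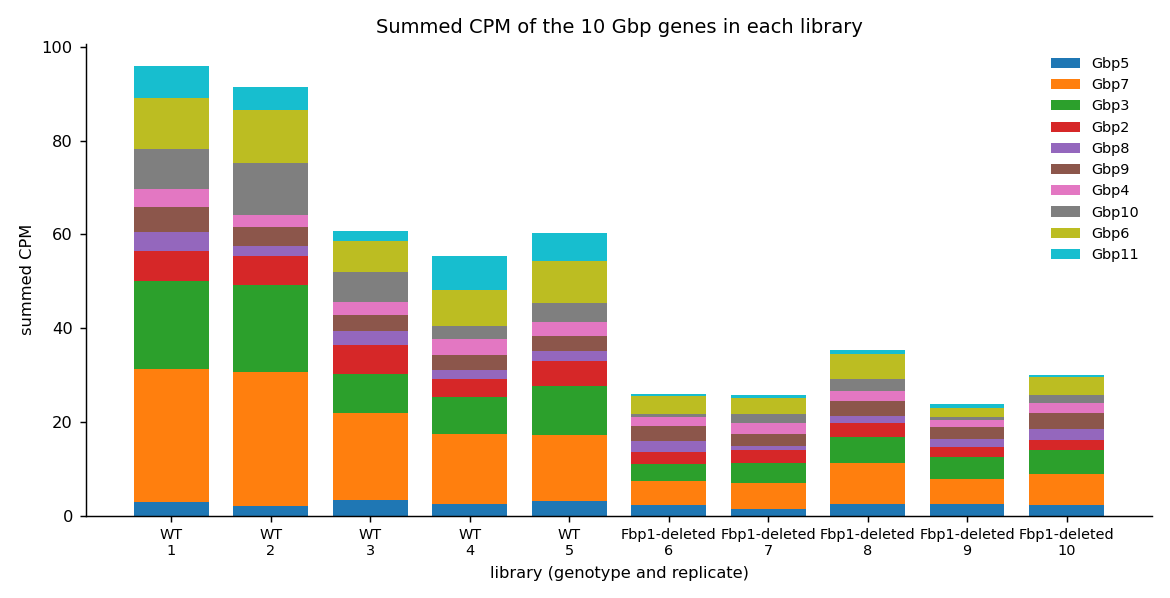
Stacked CPM of the 10 Gbp genes in each of the 10 libraries, one colour per gene. The WT sums run from 55.5 to 95.8 CPM, with replicates 1 and 2 highest, and the Fbp1-deleted sums from 23.8 to 35.3 CPM, with replicate 8 highest.

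Levels can be compared between genes only per length. In WT liver, per kilobase of annotated exon, the order was Gbp3 (3.92 CPM per kb), Gbp7 (3.71), Gbp2 (2.25), Gbp11 (2.02), Gbp10 (1.70), Gbp6 (1.52), Gbp9 (0.762), Gbp8 (0.752), Gbp5 (0.425) and Gbp4 (0.406). Neighbours in this order had overlapping ranges of libraries, except Gbp6 against Gbp9 and Gbp8 against Gbp5. The ranges were not compared liver by liver, so an overlap does not show that the order differed between livers. In Fbp1-deleted liver Gbp3 and Gbp7 had the highest levels (1.41 and 1.13 CPM per kb), Gbp2 followed at 1.01, and Gbp11 was last at 0.228. The order depends on the length used. Per kilobase of the longest coding transcript, Gbp6 stood at 3.48 CPM per kb in WT and, at 1.41 CPM per kb in Fbp1-deleted liver, above Gbp7. In WT, Gbp8 (1.05) and Gbp5 (0.923) then stood above Gbp9 (0.900).

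Within a genotype, members differed in how far they varied together from library to library. Deviations of log2 CPM from the genotype mean were correlated for each pair of members over the 10 libraries, as a description. The median Pearson r was 0.22 over 45 pairs, with a range of -0.39 to 0.86, and it was 0.07 without WT replicate 1 and 0.41 without WT replicate 2. Gbp3 with Gbp7 (r = 0.86, n = 10 libraries) and Gbp7 with Gbp10 (0.84) were the highest pairs, the second across chromosomes. The median was 0.17 within chromosome 3, 0.19 within chromosome 5 and 0.26 between the clusters. Gbp5 and Gbp11 were the least like the family mean (r = 0.08 and 0.11, n = 10). Among non-members, the deviations most like the family mean were those of Grik5 (r = 0.96), Hmgb1 (0.96), Il21r (0.95), Zfp512 (0.94) and Gm4631 (0.94), all over 10 libraries that share depth and genotype groups. Of these, Grik5 and Il21r fell, with log2 changes of -0.94 and -0.66 (edgeR, adjusted p = 0.00557 and 0.0276). The 5 genes were picked as the highest of all non-members among the 15392 genes tested. A search over that many genes yields high r by selection alone, and how high was not worked out. Whether they vary with the family beyond that was not tested.

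Upstream of the family, the ligand was at the edge of detection. Ifng had 1 read in each of WT replicates 1, 2 and 5 and 0 reads in the other 7 libraries, and was not tested. The receptor genes Ifngr1 and Ifngr2 stood at 14.4 ± 1.5 and 24.1 ± 4.88 CPM in WT and 13.8 ± 1.21 and 18.3 ± 2.69 CPM in Fbp1-deleted liver (SD, n = 5 each), without passing (adjusted p = 0.751 and 0.069, edgeR). Ifngr2 passed under 4 of 19 alternatives. Of 12 genes of interferon gamma signalling, 10 were tested, with a median change of -0.07. Of these, 1 fell and 2 rose, near the shares over all genes tested (10% fell and 10.6% rose). With upper quartile factors or library totals alone, 3 genes of this list fell and 1 rose.

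Irf1, a factor that interferon gamma induces and that acts on Gbp promoters, was the signalling gene that fell. It stood at 37.4, 38.2, 31.9, 31.3 and 40.2 CPM in WT replicates 1 to 5 and at 12.1, 12.8, 20.1, 9.65 and 7.77 CPM in Fbp1-deleted replicates 6 to 10. The groups were fully apart, and Fbp1-deleted replicate 8 was nearest to WT, as with Gbp7. The change was -1.52 (SE 0.21, adjusted p = 0.000538, edgeR), and the call held under 19 of 19 alternatives.

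Jak1 rose by 0.35 (SE 0.11, adjusted p = 0.0363, edgeR), a call lost under 10 of 19 alternatives, among them the removal of WT replicate 1, 2 or 5 or of Fbp1-deleted replicate 6, 9 or 10 (highest adjusted p = 0.199). Jak2 was at 11.9 ± 1.15 CPM in WT and 11.3 ± 1.73 CPM in Fbp1-deleted liver (adjusted p = 0.723, edgeR). Ptpn2, a phosphatase that removes the activating phosphate from JAK1, rose from 8.96 ± 1.21 to 13.9 ± 2.50 CPM (change 0.63, SE 0.15, adjusted p = 0.0101, edgeR).

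The second arm of interferon signalling, which type I and III interferons use and which ends on ISRE elements, held 8 tested genes. Of these, 3 fell and 0 rose, beside 10% and 10.6% of all genes tested. Irf7 fell from 32.9 ± 2.95 to 15.4 ± 2.79 CPM, Irf9 from 38.1 ± 2.68 to 22.7 ± 1.90 CPM and Stat2 from 73.2 ± 7.44 to 47.9 ± 6.74 CPM (SD, n = 5 each). In edgeR the adjusted p values were 7.51e-05, 0.000183 and 0.00282. IRF9 and STAT2 are parts of the complex that binds these elements. The receptor genes Ifnar1 and Ifnar2 did not pass.

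Many other interferon-inducible GTPases fell as well. Of 12 tested, 9 fell and 0 rose, beside 10% and 10.6% of all genes tested. The median change of the 12 was -1.03. Mx2, an antiviral dynamin relative, fell from 7.76 ± 1.53 to 2.24 ± 0.374 CPM (edgeR, adjusted p = 4.91e-05), or by 1.79 on the log2 scale. Iigp1, an immunity-related GTPase that acts beside GBPs on vacuoles, fell from 209 ± 28.4 to 112 ± 11.3 CPM. Irgm2, a regulator of that family, fell by 0.95 on the log2 scale (SE 0.14). Gm12250, which encodes Irgb10, stood at 5.26, 4.99, 2.60, 3.44 and 1.44 CPM in WT and 0.623, 0.613, 0.970, 0.425 and 0.716 CPM in Fbp1-deleted liver. Its log2 change was -2.39 with an SE of 0.36 (edgeR, adjusted p = 0.000704). These libraries did not overlap.

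Of 26 other tested targets of interferon gamma, 13 fell and 0 rose, with a median change of -0.58. The 4 with the lowest adjusted p were Psmb10, Psme1, Psmb8 and Tapbp. The immunoproteasome subunits Psmb10 and Psmb8 had log2 changes of -1.12 and -0.65, the proteasome activator Psme1 of -0.56 and the peptide-loading factor Tapbp of -0.66 (edgeR, adjusted p between 0.000332 and 0.00231). Of 22 type I interferon-stimulated genes 16 fell and 0 rose, with a median of -0.999. Xaf1, Rtp4, Zbp1 and Ifi27 fell, with log2 changes of -2.31, -1.46, -1.37 and -0.63 (edgeR, adjusted p between 0.000311 and 0.0028). Over all lists together 46 of 107 tested genes fell and 6 rose, beside 10% and 10.6% of all genes tested. Without WT replicates 1 and 2 the numbers in the lists were 29 and 2. The interferon gamma targets and type I genes that fell then numbered 7 and 8.

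**Figure D4:**
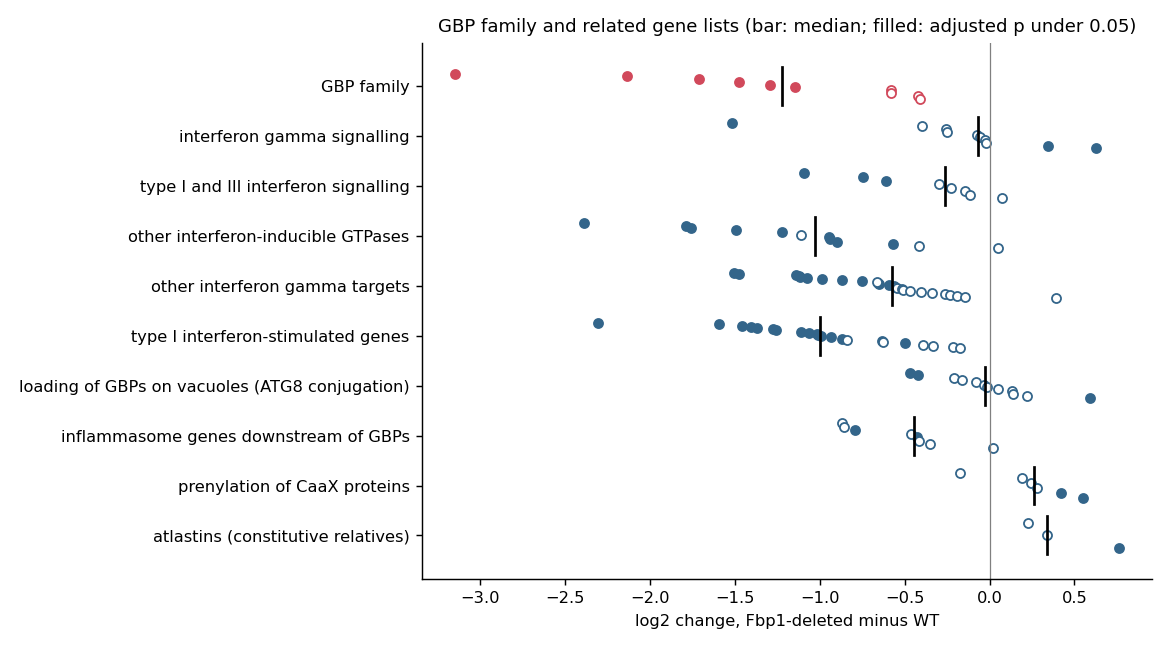
Fitted log2 change (Fbp1-deleted minus WT) of the GBP family (red) and of each tested gene in 9 related lists (blue), with the median as a black bar and filled points where the adjusted p was under 0.05. The medians lie at -1.22 for the GBP family, -1.03 for the other GTPases and -0.999 for type I genes, and near or above 0 for ATG8 conjugation, prenylation and the atlastins.

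The ATG8 conjugation machinery, which places GBPs on vacuoles, had 12 tested genes, of which 2 fell and 1 rose, again near the share over all genes tested. Gabarapl1 and Atg3 fell, with log2 changes of -0.47 and -0.42 (edgeR, adjusted p = 0.00438 and 0.007), and the autophagy receptor Sqstm1 rose from 378 ± 38.1 to 570 ± 70.7 CPM. Of 8 inflammasome genes 2 fell and 0 rose, beside 10% and 10.6% of all genes tested. The log2 changes were -0.79 for Casp1 and -0.42 for Gsdmd (edgeR, adjusted p = 0.0255 and 0.0411). Both calls were lost without WT replicate 1, Fbp1-deleted replicate 6 or Fbp1-deleted replicate 9. Casp4, the lipopolysaccharide sensor, was at 1.32 ± 0.340 CPM in WT and 1.33 ± 0.366 CPM in Fbp1-deleted liver (SD, n = 5 each), and did not pass (adjusted p = 0.971, edgeR).

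Of 6 genes that prenylate proteins with a CaaX end or process them after prenylation, 2 rose and 0 fell. Over all genes tested 10.6% rose and 10% fell. The 2 that rose act after prenylation, and the prenyltransferase subunit genes Fnta, Fntb and Pggt1b did not pass. Icmt, the methyltransferase of the last step, rose by 0.55 (SE 0.14, adjusted p = 0.0171, edgeR), a call lost without WT replicate 2. Rce1, the protease before it, rose by 0.42 (SE 0.14, adjusted p = 0.0482, edgeR), a call lost under 13 of 19 alternatives, among them the removal of each WT replicate or of Fbp1-deleted replicate 7, 9 or 10. Among the atlastins, the constitutive relatives of GBPs in the endoplasmic reticulum, Atl2 rose by 0.76 (SE 0.16, adjusted p = 0.00556, edgeR), a call lost without WT replicates 1 and 2 (adjusted p = 0.0579). Atl1 and Atl3 had changes of 0.34 and 0.23 without passing (adjusted p = 0.304 and 0.169).

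Markers of cells that can hold GBPs or make interferon gamma fell in some lists and not in others. Over all genes tested 10% fell and 10.6% rose. Of 8 Kupffer cell markers 5 fell and 0 rose, with a median of -0.48, and their summed level was 266 to 367 CPM in WT and 191 to 290.2 CPM in Fbp1-deleted libraries. Of 31 markers of T, NK, B, dendritic and myeloid cells, 23 were tested, 5 fell and 0 rose. T cell markers summed to 6.34 to 11.7 CPM in WT and 6.40 to 7.71 CPM in Fbp1-deleted liver, and 0 of 7 tested passed (edgeR). NK cell markers summed to 3.82 to 5.20 CPM in WT and 2.26 to 3.40 CPM in Fbp1-deleted liver, and Gzma fell. B cell markers summed to 5.30 to 9.25 and 2.31 to 5.53 CPM, and 2 of 4 tested fell, Cd79a among them. Neutrophil and monocyte markers summed to 8.79 to 13.5 and 3.34 to 8.01 CPM, with Ly6c2 the one that fell, and dendritic cell markers to 12.9 to 17.9 and 10.2 to 14.1 CPM, with Zbtb46 the one that fell. The NK cell and the neutrophil and monocyte sums, both low, did not overlap between the genotypes. Among single genes tested, 6.89% were fully apart with Fbp1-deleted lower, a share not worked out for sums. Of 7 NK cell markers 3 were tested and 1 fell, and of 6 neutrophil and monocyte markers 5 were tested and 1 fell. Of 8 sinusoidal endothelial markers 1 rose and 0 fell, with sums of 278 to 323 and 201 to 315 CPM. Of 7 hepatocyte markers 1 rose and 1 fell, with a median change of 0.13. Stellate cell markers had a median change of 0.18, and 0 of 6 tested passed. No marker in these lists was at 0 in all libraries. The median change was -1.37 for the 3 tested NK cell markers, -1.14 for B cells, -0.79 for neutrophils and monocytes, -0.63 for T cells, -0.35 for dendritic cells and -0.25 for endothelial cells, beside -1.22 for the Gbp genes. The part of these cells in the fall of the Gbp genes was not tested.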

How the data were processed

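RNA of 10 livers was sequenced as mRNA libraries that do not keep the strand, per the labels' protocols. The deposited table holds expected counts, estimated per gene by the authors, 1 column per liver. CASAVA, Salmon and GRCm38 are named in the submitters' processing notes, without versions. The design text also describes STAR, featureCounts and DESeq2. Whether counts were adjusted for transcript length is not given in the sources used here. All deposited expected counts were whole, so nothing was rounded. Symbols came from GENCODE M21 (52175 identifiers matched with version, 1180 without, 37 not at all).

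The test was that of edgeR 4.0.16 under R 4.3.3 (filterByExpr, TMM, robust quasi-likelihood F test, no covariate), tested on simulated data first. The SE was taken as the absolute change over the root of F. The series' design text calls the livers biological replicates. The replicate numbers run on from 1 group to the other and name no pairs, so nothing was paired. Alternatives were RLE factors, upper quartile factors, library totals, no filter, a filter of 1 CPM in 5 libraries, DESeq2 1.42.0, limma-voom (limma 3.58.1), no robust shrinkage, a threshold of 0.01 and each library left out. The fit without WT replicates 1 and 2 and the test of pairs were added after values were seen. Correlations and the test of pairs used log2 CPM with a prior count of 2. The members and lists were chosen with earlier results of these data known. Named beside the members were fixed pathway genes, up to 4 genes per list with the smallest adjusted p, cluster neighbours and the 5 genes most like the family. Casp4, Ifnar1, Ifnar2, Fntb and Pggt1b were chosen after their values were seen. Irgd, 1 of the 13 listed GTPases, was not analysed here. Values of 2 listed genes are not reported here.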

Additional observations from a re-analysis of the deposited data

Results flagged for a closer look

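Gbp5 in Fbp1-deleted replicate 7 stood at 1.34 CPM, apart from the other 4 libraries of its group, which lay between 2.20 and 2.43 CPM. Its distance to the nearest of them was 0.795 of the group's range, where Dixon's 95% critical value for 5 samples is 0.71. It was the only such value among 28 groups checked (the 10 genes and 4 sums in each genotype), and chance flags about 1 in 20. Without that library the change of Gbp5 was -0.28 (adjusted p = 0.393, edgeR).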

How the results depend on the processing

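The count of Gbp genes that fell was between 5 and 7 over 20 alternatives, and 0 rose under any of them. The fall of Gbp2, Gbp3, Gbp6, Gbp7 and Gbp11 held under 19 of 19 alternatives, and that of Gbp10 under 18. Gbp4 passed with upper quartile factors (-0.65), library totals (-0.67), the stricter filter (-0.60) and DESeq2 (-0.58). No change of a member reversed. Genes of all pathway lists that fell were 46 in the fit reported, 29 without WT replicates 1 and 2, and 38 to 49 with each library left out. Those that rose were 6, 2 without WT replicates 1 and 2, 2 at a threshold of 0.01, and 3 to 6 with each library left out, the 3 without WT replicate 2. The log2 ratio of the summed family was -1.37, with -1.25 to -1.47 over its alternatives. With levels per longest transcript, the WT levels of Gbp4, Gbp5, Gbp6 and Gbp8 moved by more than their SD. They became 0.671, 0.923, 3.48 and 1.05 CPM per kb. No paired analysis was made because the replicate numbers name no pairs. Depth limits Gbp11 in Fbp1-deleted liver (8 to 15 reads per library) and Ifng. It also limits Gbp10 in Fbp1-deleted replicates 6 and 9 (13 and 11 reads) and Gbp8 in replicate 7 (16 reads). The split of reads among Gbp6, Gbp10 and Gm43302 carries an error that replicates do not show. To a lesser degree this holds for Gbp11 and Gbp8, which share 34.3% and 31.1% of their words of 31 bases with another gene.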
